A study of Mus musculus with 16 samples.

Results

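The messenger RNA of 10 cytokine and chemokine genes that the unstimulated brain expresses was followed in the whole brains of mice exposed to lipopolysaccharide (LPS), a bacterial cell-wall component that triggers innate immune signalling. The 10 genes were 5 that encode interleukins or a colony-stimulating factor (Il33, Il34, Il18, Il16 and Csf1), 2 of the transforming growth factor beta family (Tgfb1 and Tgfb2) and 3 chemokines (Cx3cl1, Cxcl12 and Cxcl14). They were chosen by name, through the Ensembl identifiers that carry these symbols on GRCm38, and all 10 were found among the 49671 genes counted and were among the 18875 genes that passed the filter on low counts. RNA came from 16 C57BL/6 mice, 1 library per mouse and 4 mice per group. The LPS-LPS group had LPS given to the dam on gestation day 16 and LPS again to the offspring at postnatal day 30. The LPS-Saline group had LPS before birth and saline in puberty, the Saline-LPS group saline before birth and LPS in puberty, and the Saline-Saline group saline both times. All injections were intraperitoneal, the offspring were described as male, and brains were taken at postnatal day 32. That the dam's injection comes first in each group name is a reading of the labels, which do not spell it out. Litters are not given, so the p-values reflect variation among mice of which some may share a dam.

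These genes differ from the cytokines of acute inflammation in that resting brain cells transcribe them. IL-34 and CSF1 are ligands of the receptor CSF1R, on which microglia depend for survival, and IL-34 is made mainly by neurons. Cx3cl1 encodes fractalkine, a membrane-tethered neuronal chemokine that signals to the microglial receptor CX3CR1. CXCL12 guides migrating neurons and blood cells through CXCR4, and in the adult brain it is made by endothelium and by some neurons and glia. IL-33 is a nuclear alarmin of oligodendrocytes and astrocytes, and TGF-beta keeps microglia in their resting state.

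The libraries held 25729919 to 38571036 gene counts, with a median of 31810757. Levels are given as CPM, counts scaled to each library's gene total by the TMM method. Neuronal, astrocytic, oligodendrocytic and microglial markers were present in every library, as a brain sample should hold. Gabra6, which marks granule cells of the cerebellum, lay below 1 CPM in 8 libraries and between 2.504 and 70.35 CPM in the other 8, which were 3 of LPS-LPS, 2 of LPS-Saline, 2 of Saline-LPS and 1 of Saline-Saline. The library labelled LPS-LPS replicate 3 had 503 CPM of Xist and 0 CPM of the Y-linked Ddx3y, which goes against its description as male. LPS-LPS replicate 1 and Saline-LPS replicate 1 held 502 and 44.1 CPM of the pituitary hormone gene Gh, against at most 2.57 CPM in the other 14 libraries. In RNA from whole brain, fewer cells of a type and less RNA per cell cannot be told apart.

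Levels spanned a wide range when divided by exon length, taken as all annotated exons of a gene merged. The length of the transcripts expressed here may be shorter. Without the division Cxcl12 averaged 47.5 CPM, Csf1 24.1 CPM and Il33 16.3 CPM, so the order below depends on it. Cx3cl1 stood at the top with 179 ± 13.5 CPM per kilobase of exon (SD over 16 libraries), above 99.2% of the tested genes. Cxcl14, a chemokine of interneurons and other neurons, followed at 68.5 ± 4.27 and Il34 at 28.8 ± 2.0 CPM per kilobase, above 96.8 and 90.7% of the tested genes. Il18, whose protein is released after cleavage by inflammasome caspase-1, stood at 13.6 CPM per kilobase. Cxcl12 at 5.81, Il33 at 5.66 and Csf1 at 4.57 CPM per kilobase lay close together, and the library ranges of each overlapped those of the next. Tgfb2 stood at 2.21, Tgfb1 at 1.05 and Il16 at 0.780 CPM per kilobase, and the ranges of Tgfb1 and Il16 overlapped. The ranges of all other neighbours in this order were apart. Within groups the coefficient of variation was 5.08% for Il34, 5.59% for Tgfb2, 6.36% for Cxcl14 and 7.91% for Cx3cl1, against a median of 10.9% over all tested genes. It was 18.1% for Tgfb1, 20.5% for Cxcl12 and 74.2% for Il16, whose spread exceeded that of 99.6% of the tested genes.

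**Figure D1:**
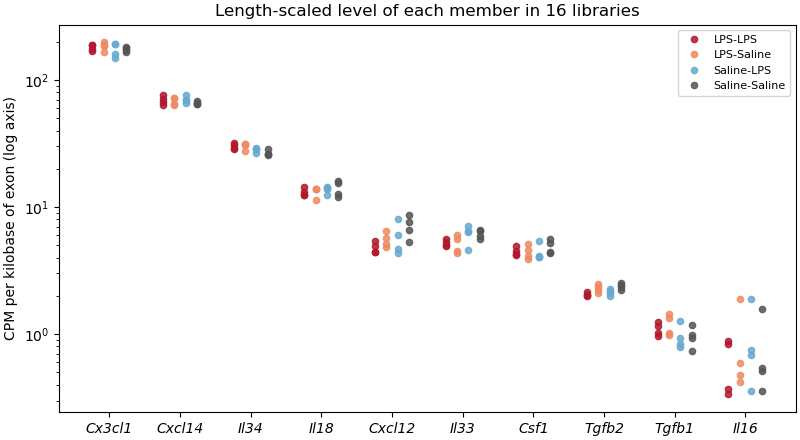
Level of each cytokine gene in CPM per kilobase of exon (log axis), with 1 point per library and colours for the 4 groups. Cx3cl1 (mean 179) lies above every other member in all 16 libraries, and Il16 (mean 0.780) spreads most widely.

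Stretches of the start regions are shown for 3 members because their values below differ most in kind: Cx3cl1 for its level, Cxcl12 for its difference between groups and Il33 as the interleukin gene with the lowest fitted difference for prenatal LPS. Each line gives the 250 bases before a RefSeq transcript start on GRCm38.p6, 5′ to 3′ on the plus strand, at chr8:94771930-94772179, chr6:117168285-117168534 and chr19:29924863-29925112. Capitals mark matches on either strand. The letters searched were TATAAA for the TATA element. For the GC box they were GGGCGG. The CCAAT box was searched by those letters.

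Cx3cl1: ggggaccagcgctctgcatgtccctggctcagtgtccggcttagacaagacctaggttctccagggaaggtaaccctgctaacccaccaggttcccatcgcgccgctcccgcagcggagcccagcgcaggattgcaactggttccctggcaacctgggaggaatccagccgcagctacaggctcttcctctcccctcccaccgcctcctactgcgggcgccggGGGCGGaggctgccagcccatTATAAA

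Cxcl12: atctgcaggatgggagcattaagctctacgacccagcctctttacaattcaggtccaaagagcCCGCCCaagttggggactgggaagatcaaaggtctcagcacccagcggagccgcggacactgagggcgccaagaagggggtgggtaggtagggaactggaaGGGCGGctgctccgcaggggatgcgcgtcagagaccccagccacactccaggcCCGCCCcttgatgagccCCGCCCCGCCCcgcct

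Il33: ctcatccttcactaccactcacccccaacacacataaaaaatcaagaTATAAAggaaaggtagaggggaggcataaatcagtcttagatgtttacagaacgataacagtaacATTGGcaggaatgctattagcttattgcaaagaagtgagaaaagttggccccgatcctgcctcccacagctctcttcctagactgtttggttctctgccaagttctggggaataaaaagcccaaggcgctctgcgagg

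The Cxcl12 stretch is 64.4% G and C and holds 5 matches to the GC box, of which a pair overlaps, and 0 to the TATA element. The Cx3cl1 stretch is 64.8% G and C with 1 match to the TATA element, which ends at its last base, and 1 to the GC box. The annotated Cx3cl1 gene starts at 94772009, inside this stretch, so both matches lie after that start. The Il33 stretch is 45.2% G and C with 1 match each to the TATA element and the CCAAT box. Of 32851 such windows in RefSeq, 12.4% hold the TATA element, 32.7% the GC box and 33.8% the CCAAT box, and their median G and C content is 52.4%. A match describes the letters only, and 9 of the 10 members had a window.

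Prenatal LPS was compared with prenatal saline over both pubertal injections, 8 libraries against 8, in edgeR's quasi-likelihood fit, with p-values adjusted over all tested genes by the Benjamini-Hochberg method. Il34 rose, by 0.14 on the log2 scale, and was the 1 member of 10 called at an adjusted p below 0.05, where 7.82% of all tested genes were called. At an unadjusted p below 0.05 there were 4 members, Il33, Il34, Tgfb1 and Cxcl12, against 23.2% of all tested genes, and DESeq2 called 2 members, against 12.1% of the tested genes. The median of the 10 log2 differences was -0.06, and that of all tested genes -0.01. For LPS-LPS against Saline-Saline, which share these libraries, 0 of 10 members were called by edgeR, against 6.56% of the tested genes. There 3 members, Il34, Tgfb2 and Cxcl12, had an unadjusted p below 0.05, against 21.9% of the tested genes, and DESeq2 called the same 3, where it called 10.6% of the tested genes. The counts are of only 10 members, and whether they differ from these shares was not tested. Replicate numbers were shared across groups. With the number as a block 3 members were called for prenatal LPS, namely Cxcl12, Il33 and Il34, where 13.2% of the tested genes were called. Some same-numbered libraries correlated at as little as 0.017 (LPS-LPS and Saline-Saline), so the block may pair libraries that share only a number.

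**Figure D2:**
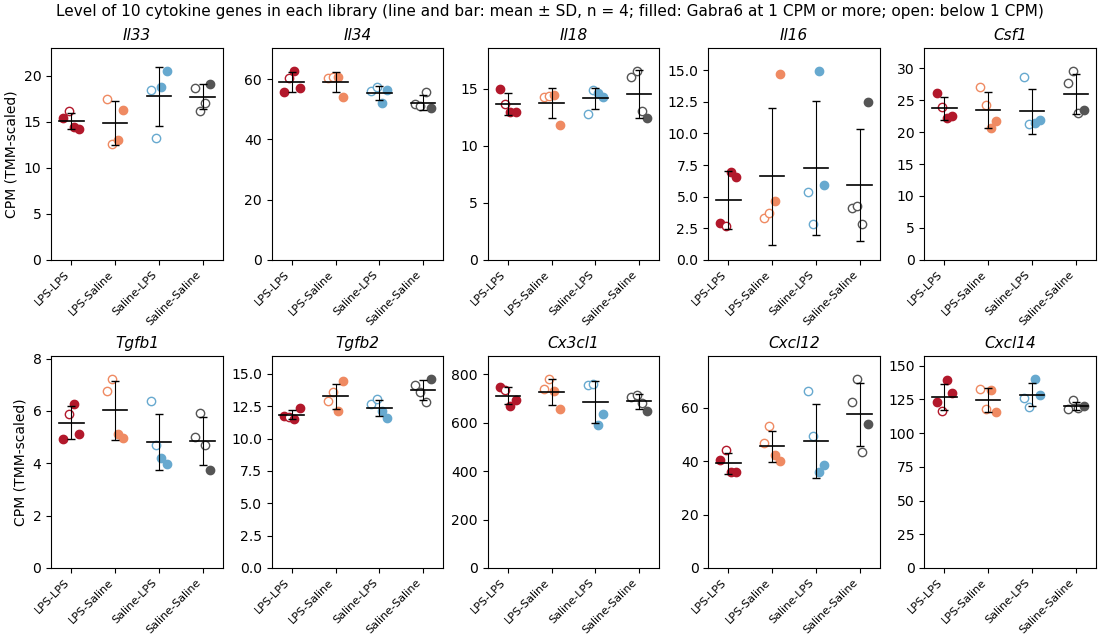
CPM of each of the 10 members in 16 libraries, by group, with mean and SD (n = 4); filled points are libraries with Gabra6 at 1 CPM or more and open points those below. Il34 is higher in all 4 LPS-LPS libraries than in any Saline-Saline library, Tgfb2 is lower in all 4, and Il16 is highest in filled points.

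Il34 (GRCm38, chr8:110741829-110805924, minus strand) encodes the neuronal CSF1R ligand. It had 56.0, 60.6, 63.0 and 57.0 CPM in LPS-LPS, and 60.5, 60.9, 60.9 and 54.2 CPM in LPS-Saline. It had 56.0, 57.4, 52.0 and 56.6 CPM in Saline-LPS, and 51.7, 51.1, 55.8 and 50.5 CPM in Saline-Saline. All 4 LPS-LPS libraries lay above all 4 Saline-Saline libraries, though by little, while LPS-Saline overlapped Saline-Saline through its replicate 4. Non-overlap between these groups was common, at 17.4% of the tested genes. The summed level of 5 thalamic markers separated the same 2 groups, in the other direction: it was 142 to 182 CPM in LPS-LPS, 158 to 219 CPM in LPS-Saline mice, 175 to 284 CPM in Saline-LPS and 230 to 262 CPM in Saline-Saline. Of the 5, 2 fell for prenatal LPS at an adjusted p below 0.05 (edgeR). The 8 neuronal markers summed to a median of 5839 CPM in LPS-LPS, 5666 CPM in LPS-Saline mice, 5562 CPM in Saline-LPS and 5401 CPM in Saline-Saline, with overlap, and 2 of the 8 rose for prenatal LPS. The part of these regional and neuronal transcripts in the values of Il34 or of any other member was not tested. Averaged over puberty, Il34 stood at 59.1 ± 3.03 CPM after prenatal LPS and 53.9 ± 2.82 CPM after prenatal saline (SD, n = 8 each), a log2 difference of 0.14 ± 0.042 (SE; adjusted p = 0.0497, edgeR).

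The Il34 call was narrow. It was lost in 13 of 16 fits that left out 1 library each, among them the fit without replicate 3 of LPS-LPS, whose Xist level is given above (0.12, adjusted p = 0.116, edgeR, with 3.85% of all tested genes called). An offset was also fitted for the GC content of each gene's longest transcript and for its merged exon length. With it the log2 difference was 0.00 ± 0.037 (adjusted p = 0.962, edgeR), and 0 members were called, against 3.29% of the tested genes. The longest Il34 transcript is 57.0% G and C, and the merged Il34 exons span 1959 bases. Exons of a pair of antisense genes share 22 and 75 bases with Il34, and the strand setting of the counts is not given.

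Csf1 (chr3:107741048-107760469, minus strand), the other CSF1R ligand, had 26.1, 24.0, 22.3 and 22.5 CPM in LPS-LPS and 27.1, 24.2, 20.7 and 21.8 CPM in LPS-Saline. It had 28.6, 21.3, 21.5 and 21.9 CPM in Saline-LPS and 27.7, 29.7, 23.1 and 23.5 CPM in Saline-Saline. The groups overlapped, and the log2 difference for prenatal LPS was -0.06 ± 0.075 (SE; adjusted p = 0.678, edgeR). Per kilobase of exon, Il34 stood at 28.8 CPM and Csf1 at 4.57 CPM. Their receptor gene Csf1r averaged 13 CPM per kilobase, with 55.6 to 99.0 CPM over the 16 libraries, and was called in 0 comparisons. Of 3 partner genes listed for these ligands, 1 was called for prenatal LPS. Ptprz1, a phosphatase that also binds IL-34, fell to 178 ± 8.46 CPM after prenatal LPS, against 205 ± 21.2 CPM after prenatal saline (SD, n = 8 each; log2 -0.20 ± 0.055, adjusted p = 0.0263, edgeR). With the GC and length offset Ptprz1 was not called. The summed level of 8 microglial markers ranged from 140 to 153 CPM in LPS-LPS, 135 to 160 CPM in LPS-Saline mice, 126 to 176 CPM in Saline-LPS and 125 to 178 CPM in Saline-Saline, and 0 of the 8 were called.

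Il33 (chr19:29925114-29960718, plus strand) encodes the alarmin that signals through ST2, the product of Il1rl1. It had 15.4, 16.2, 14.4 and 14.3 CPM in LPS-LPS and 17.5, 12.6, 13.02 and 16.3 CPM in LPS-Saline. It had 18.5, 13.2, 18.8 and 20.6 CPM in Saline-LPS and 18.6, 16.1, 17.0 and 19.1 CPM in Saline-Saline. Most prenatal LPS libraries lay below most prenatal saline libraries, with Saline-LPS replicate 2 among the lowest. The means were 14.9 ± 1.68 and 17.7 ± 2.28 CPM (SD, n = 8 each) for prenatal LPS and prenatal saline, a log2 difference of -0.25 ± 0.084 that did not pass (adjusted p = 0.0699, edgeR). With the replicate block it was -0.25 (adjusted p = 0.0237) and with the GC and length offset -0.28 (adjusted p = 0.0578). DESeq2 put it at -0.25 and called it (adjusted p = 0.0304, DESeq2). Without the 3 libraries that stood apart by Gh or Xist it was -0.23 (adjusted p = 0.294, edgeR). Among the 8 libraries with Gabra6 at 1 CPM or more it was -0.40 (adjusted p = 0.0150, edgeR), and among the 8 below 1 CPM -0.10 (adjusted p = 0.813, edgeR), and the difference between these subsets was not tested. The summed level of 8 markers of mature oligodendrocytes, a source of IL-33, was 11970 to 14040 CPM in LPS-LPS, 10560 to 13540 CPM in LPS-Saline mice, 11750 to 15110 CPM in Saline-LPS and 11560 to 14360 CPM in Saline-Saline, with no marker at 0. Of the 8, 3 were lower for prenatal LPS at an adjusted p below 0.05 (edgeR), with a median log2 difference of -0.19, and their part in the Il33 values was not tested.

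The receptor side of IL-33 was uneven. Il1rl1 averaged 0.207 CPM and was below the filter on low counts. Il1rap, the coreceptor shared with IL-1 and IL-36, fell to 33.8 ± 2.24 CPM after prenatal LPS, against 40.7 ± 3.11 CPM after prenatal saline (SD, n = 8 each; log2 -0.27 ± 0.051, adjusted p = 0.00407, edgeR). It stood at 33.8 ± 1.34 CPM in LPS-LPS brains and 42.3 ± 3.72 CPM in Saline-Saline brains (SD, n = 4 each; log2 -0.32 ± 0.072, adjusted p = 0.0122, edgeR). The averaged call held in all 16 fits that left out 1 library, but not without the 3 libraries that stood apart by Gh or Xist. With the GC and length offset the adjusted p was 0.0665 for prenatal LPS.

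Il18 (chr9:50554827-50581840, plus strand) is kept as an inactive precursor until caspase-1 cleaves it. It had 15.0, 13.7, 12.9 and 12.9 CPM in LPS-LPS, 14.3, 14.4, 14.4 and 11.8 CPM in LPS-Saline mice, 12.8, 14.9, 14.6 and 14.3 CPM in Saline-LPS and 16.0, 16.6, 13 and 12.4 CPM in Saline-Saline. The groups overlapped, with a log2 difference of -0.07 ± 0.070 for prenatal LPS (SE; adjusted p = 0.633, edgeR). Its receptor chains were near the floor: Il18r1 averaged 0.0376 CPM and Il18rap 0.0540 CPM. Il18bp, which encodes the soluble decoy that binds IL-18, fell to 6.27 ± 0.706 CPM after prenatal LPS, against 7.84 ± 1.34 CPM after prenatal saline (SD, n = 8 each; log2 -0.33 ± 0.093, adjusted p = 0.0358, edgeR). It stood at 5.71 ± 0.457 CPM in LPS-LPS brains and 8.03 ± 0.679 CPM in Saline-Saline brains (SD, n = 4 each; log2 -0.49 ± 0.13, adjusted p = 0.0302, edgeR). The other tested IL-18 partners, Casp1, Nlrp3 and Pycard, which form the inflammasome that activates IL-18, were not called.

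Il16 (chr7:83642825-83745726, minus strand) gives rise to a chemoattractant for CD4-bearing cells and, from a longer transcript, to a neuronal scaffold protein. It had 2.92, 2.63, 6.92 and 6.51 CPM in LPS-LPS, 3.32, 3.73, 4.62 and 14.7 CPM in LPS-Saline mice, 5.37, 2.81, 15.0 and 5.95 CPM in Saline-LPS and 4.06, 4.27, 2.80 and 12.5 CPM in Saline-Saline. A single library stood far above the rest in LPS-Saline, Saline-LPS and Saline-Saline. Pooled over the groups, Il16 averaged 8.64 ± 4.72 CPM in the 8 libraries with Gabra6 at 1 CPM or more and 3.62 ± 0.932 CPM in the 8 below (SD). The ranges overlapped, at 2.92 to 15.0 CPM and 2.63 to 5.37 CPM. The genes most like it over the 16 libraries, by Pearson's r of deviations from the group means, were Zic1, Cdc42bpg and Bcl2l15, each at 0.97. The summed level of 6 granule cell markers ranged from 52.6 to 201 CPM in LPS-LPS, 43.4 to 389 CPM in LPS-Saline mice, 43.5 to 451 CPM in Saline-LPS and 45.9 to 339 CPM in Saline-Saline. Gabra6 was at 0 in 1 library.

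The Il16 difference for prenatal LPS was -0.24 ± 0.47 on the log2 scale (SE; adjusted p = 0.824, edgeR), and its sign turned without Saline-Saline replicate 4 (0.09) or Saline-LPS replicate 3 (0.08). Stard5, on the opposite strand, shares 1202 exon bases with Il16, 15.3% of its exon length. Without strand, reads within those shared bases cannot be told apart. Reads entered as ambiguous were left out of the gene counts, and how many came from these bases was not tested. The IL-16 partners Cd4 and Cd9 were tested and were not called.

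Tgfb1 (chr7:25687002-25705077, plus strand), the isoform made largely by microglia, had 4.91, 5.89, 6.26 and 5.12 CPM in LPS-LPS and 6.74, 7.22, 5.13 and 4.98 CPM in LPS-Saline. It had 6.37, 4.69, 4.22 and 3.98 CPM in Saline-LPS and 4.99, 5.94, 4.71 and 3.72 CPM in Saline-Saline. The means were 5.78 ± 0.886 CPM after prenatal LPS and 4.83 ± 0.924 CPM after prenatal saline (SD, n = 8 each), and the log2 difference of 0.26 ± 0.12 did not pass (adjusted p = 0.176, edgeR). With a score of the 6 granule cell markers as a covariate it was 0.29 (adjusted p = 0.0311, edgeR), in a fit that called 14.7% of the tested genes.

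Tgfb2 (chr1:186622792-186705989, minus strand), the isoform of astrocytes and neurons, had 11.8, 11.7, 11.5 and 12.3 CPM in LPS-LPS and 12.9, 13.6, 12.2 and 14.4 CPM in LPS-Saline. It had 12.7, 13.02, 12.1 and 11.6 CPM in Saline-LPS and 14.1, 13.6, 12.8 and 14.6 CPM in Saline-Saline. Both groups given LPS in puberty were lower on average than the groups given saline, and the 4 LPS-LPS libraries lay below the 4 Saline-Saline libraries. For pubertal LPS the means were 12.1 ± 0.545 CPM, against 13.5 ± 0.857 CPM for pubertal saline (SD, n = 8 each), a log2 difference of -0.16 ± 0.054. Its counts of 347 to 528 reads carry a counting error of 4.35 to 5.37%, close to its whole spread within groups of 5.59%. Its unadjusted p was 0.00671 by edgeR, but the adjusted p over all genes was 0.908. Against Saline-Saline, LPS-LPS differed by -0.22 ± 0.076 (SE; adjusted p = 0.0838, edgeR; 0.0428, DESeq2).

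Of 25 TGF-beta partners, all tested, 1 rose and 1 fell for prenatal LPS and 23 were not called. Dcn, a matrix proteoglycan that binds TGF-beta and also marks meningeal fibroblasts, rose to 23.5 ± 1.44 CPM after prenatal LPS, against 19.9 ± 2.54 CPM after prenatal saline (SD, n = 8 each; log2 0.23 ± 0.069, adjusted p = 0.0405, edgeR). The 7 meningeal fibroblast markers summed to a median of 158 CPM in LPS-LPS, 144 CPM in LPS-Saline mice, 139 CPM in Saline-LPS and 129 CPM in Saline-Saline, 1 of the 7 rose for prenatal LPS, and their part in the Dcn difference was not tested. Skil, which encodes a repressor of SMAD signalling, fell to 60.7 ± 5.79 CPM after prenatal LPS, against 71.2 ± 3.54 CPM after prenatal saline (SD, n = 8 each; log2 -0.23 ± 0.054, adjusted p = 0.0145, edgeR). In LPS-LPS relative to Saline-Saline, 2 of the 25 fell, Skil and Smad4, the shared SMAD partner. Smad4 stood at 34.8 ± 1.79 CPM in LPS-LPS brains and 40.7 ± 1.94 CPM in Saline-Saline brains (SD, n = 4 each; log2 -0.23 ± 0.064, adjusted p = 0.0367, edgeR). The receptors Tgfbr1, Tgfbr2 and Tgfbr3 were not called in any of the 8 comparisons.

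Cx3cl1 (chr8:94772009-94782427, plus strand) had 747, 737, 670 and 695 CPM in LPS-LPS and 738, 781, 731 and 655 CPM in LPS-Saline. It had 755, 759, 589 and 634 CPM in Saline-LPS and 707, 714, 680 and 649 CPM in Saline-Saline. The groups overlapped, with a log2 difference of 0.07 ± 0.053 for prenatal LPS (SE; adjusted p = 0.482, edgeR). Across libraries it ran against Il16, with r = -0.81 over 16 libraries, and averaged 671 ± 51.9 CPM in the libraries with Gabra6 at 1 CPM or more and 734 ± 32.4 CPM in those below (SD, n = 8 each). Its receptor gene Cx3cr1 had 27.8 to 38.0 CPM, and neither Cx3cr1 nor the sheddases Adam10 and Adam17 were called.

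Cxcl14 (chr13:56288643-56296551, minus strand) had 123, 117, 139 and 130 CPM in LPS-LPS and 133, 118, 132 and 116 CPM in LPS-Saline. It had 126, 120, 140 and 128 CPM in Saline-LPS and 118, 125, 119 and 120 CPM in Saline-Saline. The log2 difference for prenatal LPS was 0.02 ± 0.045 (SE; adjusted p = 0.879, edgeR), and with the GC and length offset it was -0.11 ± 0.043 (adjusted p = 0.147), so its direction depends on that choice.

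Cxcl12 (chr6:117168535-117181367, plus strand) had the largest fitted difference among the 10 members between LPS-LPS and Saline-Saline. It had 40.5, 44.3, 36.0 and 36.0 CPM in LPS-LPS and 47.0, 53.0, 42.2 and 40.0 CPM in LPS-Saline. It had 66.2, 49.4, 35.8 and 38.5 CPM in Saline-LPS and 62.3, 70.9, 43.4 and 53.9 CPM in Saline-Saline. Saline-Saline held the highest library and LPS-LPS was tightly low, but replicate 3 of Saline-Saline lay below the highest LPS-LPS library. LPS-LPS averaged 39.2 ± 3.99 CPM and Saline-Saline 57.6 ± 11.8 CPM (SD, n = 4 each), a log2 difference of -0.56 ± 0.19 that did not pass (adjusted p = 0.0903, edgeR). Leaving out Saline-Saline replicate 3 or Saline-LPS replicate 1 made it a call, and the adjusted p over all 16 such fits was 0.0280 to 0.245. For prenatal LPS the difference was -0.31 ± 0.13 (adjusted p = 0.174, edgeR), and with the replicate block -0.29 (adjusted p = 0.0189). It was -0.20 (adjusted p = 0.298) without Saline-LPS replicate 1 and -0.19 (adjusted p = 0.542) without that library and LPS-LPS replicates 1 and 3, the 3 libraries that stood apart by Gh or Xist.

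Much of the spread of Cxcl12 within groups went with endothelial RNA. Its nearest genes over the 16 libraries were Ptprb, Arap3 and Hspa12b, at r of 0.99, 0.98 and 0.98, of which Ptprb encodes an endothelial phosphatase. The summed level of 7 endothelial markers was 175 to 214 CPM in LPS-LPS, 189 to 264 CPM in LPS-Saline mice, 156 to 268 CPM in Saline-LPS and 173 to 282 CPM in Saline-Saline, with no marker at 0. For LPS-LPS against Saline-Saline, 0 of the 7 were called and their median log2 difference was -0.30. For prenatal LPS 1 was called, Itm2a, which rose by 0.18 (adjusted p = 0.0353, edgeR), and the median was -0.13. The 7 moved in both directions for prenatal LPS, from -0.56 for Flt1 to 0.30 for Cldn5. The Flt1 value, not called, is a larger fall than that of Cxcl12 (-0.31).

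As a share of that endothelial sum, Cxcl12 was 19.9, 20.7, 19.2 and 20.6% in LPS-LPS and 19.6, 20.1, 22.0 and 21.2% in LPS-Saline. It was 24.7, 24.2, 23.0 and 21.3% in Saline-LPS and 25.3, 25.2, 25.1 and 25.6% in Saline-Saline. On this scale the 4 Saline-Saline libraries lay between 25.1 and 25.6%, above every other library, and each prenatal LPS group lay below Saline-Saline without overlap. LPS-LPS and Saline-LPS did not overlap either, while LPS-Saline and Saline-LPS overlapped. On the same scale, 1.29% of the tested genes did not overlap between LPS-Saline and Saline-Saline, 1.52% between LPS-LPS and Saline-LPS and 4.02% between LPS-LPS and Saline-Saline. The share rests on the sum of markers that moved in both directions, and shares of single markers are not given. This share and the fit that follows were chosen after the values had been seen.

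With the mean log2 level of the 7 endothelial markers as a covariate in the edgeR fit across all genes, Cxcl12 fell after prenatal LPS by 0.22 on the log2 scale (adjusted p = 0.000425), and the call held in all 16 fits that left out 1 library. In that fit 4 members were called for prenatal LPS, Cxcl12, Il33, Il34 and Tgfb1, where 14.7% of the tested genes were called. The calls of Tgfb1 held in 15 of 16 such fits, of Il34 in 13 and of Il33 in 5. Without the 3 libraries that stood apart, only Cxcl12 of the 10 was called (-0.19, adjusted p = 0.0154, edgeR), where 3.88% of the tested genes were. Between LPS-LPS and Saline-Saline it was called at -0.28 (adjusted p = 0.00295, edgeR), where 10% were, and in all 16 fits that left out 1 library. Cxcl12 was also called between LPS-Saline and Saline-Saline (-0.25, adjusted p = 0.0135, edgeR), where 2.89% of the tested genes were, and between LPS-LPS and Saline-LPS (-0.19, adjusted p = 0.0484, edgeR), where 2.75% were. Of these, the call between LPS-Saline and Saline-Saline held in 13 of 16 fits that left out a library and that between LPS-LPS and Saline-LPS in 2 of 16. Without the covariate the difference between LPS-LPS and Saline-LPS was -0.28 (adjusted p = 0.547, edgeR), and without Saline-LPS replicate 1 it was -0.07. Without the 3 libraries it was -0.04 (adjusted p = 0.984), or -0.13 with the covariate (adjusted p = 0.774, edgeR). With the GC and length offset added, the prenatal difference was -0.17 (adjusted p = 0.00265, edgeR; 6.29% of the tested genes called) and that between LPS-LPS and Saline-LPS -0.13 (adjusted p = 0.167, edgeR; 0.901% of the tested genes called). Whether endothelial content, or the levels of the markers themselves, has a part in the Cxcl12 difference was not tested.

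**Figure D3:**
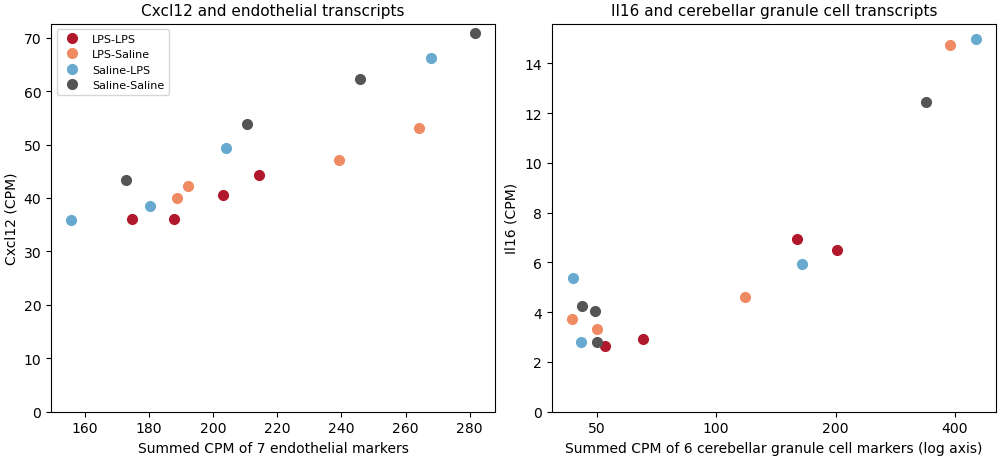
Left, Cxcl12 (CPM) against the summed CPM of 7 endothelial markers; right, Il16 (CPM) against the summed CPM of 6 cerebellar granule cell markers (log axis), with 1 point per library coloured by group. At a like endothelial sum the LPS-LPS and LPS-Saline points lie below the Saline-Saline points, and the 3 highest Il16 libraries have the 3 highest granule cell sums.

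Of 3 CXCL12 partners, 1 was called. Cxcr4, the signalling receptor, rose to 2.89 ± 0.329 CPM after prenatal LPS, against 2.26 ± 0.356 CPM after prenatal saline (SD, n = 8 each; log2 0.36 ± 0.098, adjusted p = 0.0286, edgeR). It stood at 2.81 ± 0.212 CPM in LPS-LPS brains and 1.98 ± 0.231 CPM in Saline-Saline brains (SD, n = 4 each; log2 0.51 ± 0.14, adjusted p = 0.0338, edgeR). With the GC and length offset the adjusted p was 0.134 for prenatal LPS. Sums over markers of immune cells other than microglia did not overlap between LPS-LPS and Saline-Saline, where 17.4% of the tested genes did not overlap. The 6 lymphocyte markers summed to 7.04 to 8.82 CPM in LPS-LPS, against 4.77 to 6.89 CPM in Saline-Saline. The 6 border macrophage markers summed to 19.4 to 20.5 CPM in LPS-LPS, against 14.4 to 18.6 CPM in Saline-Saline. In the other groups both sums overlapped these ranges, with 5.44 to 8.16 and 16.5 to 20.6 CPM in LPS-Saline and 3.75 to 7.998 and 17.6 to 21.3 CPM in Saline-LPS. The lymphocyte genes Cd3e, Cd3d and Ms4a1 were each at 0 in at least 1 library, 0 of the tested markers of either list were called, and their part in the Cxcr4 difference was not tested. The scavenging receptor Ackr3, with 8.29 to 12.4 CPM, and the protease Dpp4 were not called.

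**Figure D4:**
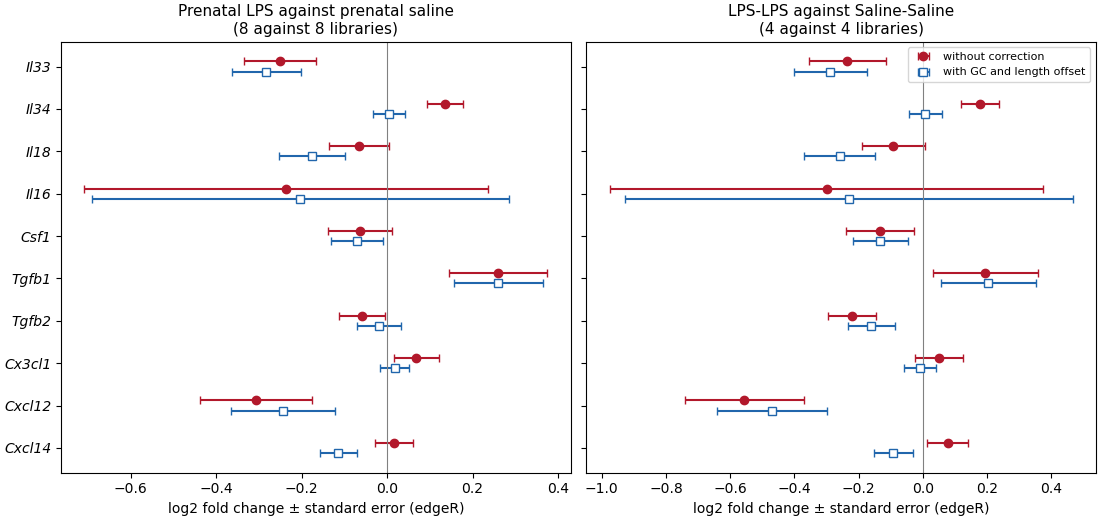
Log2 fold change with standard error of each member for prenatal LPS against prenatal saline (left) and LPS-LPS against Saline-Saline (right), without correction (filled circles) and with an offset for GC content and length (open squares). The Il34 difference moves from 0.14 to 0.00 for prenatal LPS, while that of Cxcl12 stays negative at -0.31 and -0.24.

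Across all 42 tested partners of 45 listed, 2 rose and 4 fell for prenatal LPS, a share of 14.3% beside 7.82% of all tested genes. Between LPS-LPS and Saline-Saline 1 rose and 4 fell, a share of 11.9% beside 6.56%. The partners were listed with earlier results of these libraries known, and their median log2 difference was -0.02 in both comparisons. Of the 6 calls for prenatal LPS, those of Il1rap and Skil held in all 16 fits that left out 1 library, whereas that of Ptprz1 was lost in 6, Cxcr4 in 7, Il18bp in 11 and Dcn in 12. With the GC and length offset, Il18bp and Dcn kept their calls and the other 4 did not. Without the 3 libraries that stood apart by Gh or Xist, none of the 6 was called, where 1.01% of the tested genes were. Nor was any of the 6 called among the 8 libraries with Gabra6 below 1 CPM, where 0.065% of the tested genes were. Between LPS-LPS and Saline-Saline, the Il1rap call was lost in 2 of 16 fits that left out 1 library. The calls of Il18bp, Smad4 and Skil were lost in 6 each and that of Cxcr4 in 7. Without the 3 libraries that stood apart, only Il18bp kept its call there, where 1.1% of the tested genes were called. In the other 6 comparisons 0 partners were called by edgeR, with 0 to 8 at an unadjusted p below 0.05.

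Single comparisons of prenatal LPS had fewer calls in all genes. Between LPS-Saline and Saline-Saline 0 of 10 members were called by edgeR, against 0.18% of the tested genes, 2 members (Il33 and Il34) had an unadjusted p below 0.05, against 13.2%, and DESeq2 called 0. Between LPS-LPS and Saline-LPS 0 members were called, against 0.609% of the tested genes, 0 had an unadjusted p below 0.05, against 14.0%, and DESeq2 called 0.

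Pubertal LPS, given 2 days before the brains were taken, moved no member past the threshold. Averaged over the prenatal injection, 0 of 10 members were called by edgeR, against 0.0% of the tested genes, and 1, Tgfb2, had an unadjusted p below 0.05, against 5.02% of the tested genes. The same counts, 0 called and 1 at an unadjusted p below 0.05, again Tgfb2, held between Saline-LPS and Saline-Saline and between LPS-LPS and LPS-Saline, where 0.0% of the tested genes were called in each and 2.83 and 4.01% had an unadjusted p below 0.05. DESeq2 called 0 members in all 3. For the interaction, the difference in the pubertal effect between prenatal LPS and prenatal saline, 0 members were called by edgeR or DESeq2 and 0 had an unadjusted p below 0.05, while 0.0% of the tested genes were called and 2.13% had an unadjusted p below 0.05.

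The cytokines of acute inflammation stood lower than the 10 members: the highest of the 19 listed, Ccl3, averaged 0.254 CPM per kilobase of exon, against 0.780 for Il16. The members were chosen as genes that the resting brain expresses, so this order follows from the choice and is only a description. Of the 19, 3 passed the filter on low counts (Il1a, Cxcl10 and Lif), and 0 were called by edgeR in any comparison. Il1b ranged from 0.0321 to 0.562 CPM and Tnf from 0 to 0.128 CPM, and Il6 ranged from 0 to 0.0777 CPM with 7 libraries at 0. Csf2 was at 0 in all 16 libraries, and 3 reads stood for at most 0.117 CPM in any library.

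The other members varied with different genes. Cx3cl1 was most like Pianp, Mark2 and Rimbp2 (r of 0.98, 0.98 and 0.97 over 16 libraries), Csf1 most like Slc38a3, Fgd2 and Mlxipl (0.95, 0.95 and 0.94) and Tgfb1 most like Lag3, Agbl5 and Efcab12 (0.93, 0.92 and 0.90). Il34 was most like Tox3, Zfp575 and Elac2 (0.92, 0.85 and 0.83), and Cxcl14 most like Tcf19, Ttpa and Gstt2 (0.89, 0.88 and 0.85). Il33 was most like Serpinb1a, Rbm4b and Sfxn4 (0.88, 0.87 and 0.84), Il18 most like Cyp7b1, Mmgt2 and Bst2 (0.84, 0.83 and 0.81) and Tgfb2 most like Ablim1, Cacna1a and Mllt10 (0.82, 0.82 and 0.81). Among the members, Cxcl12 went with Csf1 and with Cx3cl1 at r of 0.80 each and with Tgfb1 at 0.73. These values are descriptions over libraries that share depth, dissection and cell content.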

How the data were processed

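Whole-brain RNA of 16 mice was sequenced. The authors deposited whole-number read counts per Ensembl gene for each library. Per the submitters' processing notes, the tools were STAR 2.5.2b and HTSeq 0.11.2, with GRCm38 as the build. Strand setting and annotation release were not given in the sources used here. The 5 special entries of each file (17.2 to 19.6% of all its counts) were left out. Symbols and coordinates came from GENCODE M21, which matched 49412 of 49671 identifiers. Start-region sequences came from RefSeq (GRCm38.p6).

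Counts were tested with edgeR 4.0.16 in R 4.3.3 (filterByExpr, TMM, robust quasi-likelihood fit of 4 group means over 16 libraries), in 8 comparisons, two-sided, with Benjamini-Hochberg adjustment over 18875 genes and a threshold of 0.05. Counting error of a member in a library was 0.576 to 11.5% of its count. The alternatives were DESeq2 1.42.0, other scaling and filters, the replicate number as a block, covariates, an offset for GC content and length, subsets by Gabra6 and leaving out each library. Only the main edgeR fit was run on simulated counts, in 4 of the 8 comparisons, and the alternatives were not checked in this way. No libraries of 1 group were duplicates (chi-square per degree of freedom at least 5.17).

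The members, partner lists and marker lists were chosen with earlier results of these data known. Named were all members, called partners, receptors beside their ligands, and for each member the 3 protein-coding genes (at least 1 CPM) with the highest Pearson correlation of deviations of log2(CPM + 0.5) from group means. Replicate numbers come from the labels. Over 11947 genes, deviations of same-numbered libraries correlated at 0.169 to 0.709 between LPS-Saline and Saline-Saline and at 0.377 to 0.454 between LPS-LPS and Saline-LPS. They correlated at 0.033 to 0.424 between Saline-LPS and Saline-Saline and at 0.017 to 0.459 between LPS-LPS and Saline-Saline. The block fits 1 effect per number over all 4 groups, so it may tie libraries that share only a number. Libraries with Gabra6 at 1 CPM or more were also mostly replicates 3 and 4. For the prenatal comparison the fit with the block is printed beside the main one, which has no block, where it changes a call.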

Additional observations from a re-analysis of the deposited data

Results flagged for a closer look

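Of 40 sets of 4 libraries (10 members in 4 groups), 5 held a library whose distance to the nearest of the others took up a share of the group's whole range above Dixon's critical value for 4 values; chance gives about 1 such library in 20 sets. In LPS-Saline replicate 4 this held for 3 members. Il34 stood there at 54.2 CPM, against 60.5 to 60.9 CPM in the other 3 libraries, Il18 at 11.8 CPM, against 14.3 to 14.4 CPM, and Il16 at 14.7 CPM, against 3.32 to 4.62 CPM. Il16 in Saline-Saline replicate 4 stood at 12.5 CPM, against 2.80 to 4.27 CPM. These libraries had 52.6 and 44.3 CPM of Gabra6, the granule cell gene, the highest value of each group, and its part in them was not tested. Csf1 in Saline-LPS replicate 1, the library with 44.1 CPM of the pituitary gene Gh, stood at 28.6 CPM, against 21.3 to 21.9 CPM in the other 3, with Gabra6 at 0 CPM.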

How the results depend on the processing

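The number of members called was 0 for pubertal LPS within each prenatal group and for the interaction under every setting run. For prenatal LPS over both pubertal injections, where edgeR called 1, the count was 2 with DESeq2, 0 with DESeq2's size factors in edgeR, 0 with no filter on low counts, 3 with the replicate block (Cxcl12, Il33 and Il34), 3 with the granule cell covariate (14.7% of all genes called), 0 with the GC and length offset, 2 with block and offset together (5.92% called), 0 in the libraries with Gabra6 below 1 CPM and 0 to 2 when 1 library was left out, with Il33 added without Saline-LPS replicate 2. Between LPS-LPS and Saline-Saline, where edgeR called 0, it was 3 with DESeq2, 2 with the replicate block (Cxcl12, -0.54 at adjusted p = 0.00511, and Il34; 11.6% called), 2 with the granule cell covariate (the same pair; 12.2% called), 1 with block and offset (Cxcl12, adjusted p = 0.0119; 5.44% called) and 0 to 1 when 1 library was left out. Its same-numbered libraries correlated at 0.017 to 0.459, and those of Saline-LPS and Saline-Saline at 0.033 to 0.424. The block there and for prenatal LPS thus pairs libraries that may share only a number. In the other comparisons the block changed no call of a member. Settings chosen after seeing the data were the endothelial covariate (4 members for prenatal LPS, 2 between LPS-LPS and Saline-Saline, 1 between LPS-Saline and Saline-Saline and 1 between LPS-LPS and Saline-LPS), the same with the offset (3, 1, 1 and 0 in that order), and leaving out LPS-LPS replicates 1 and 3 and Saline-LPS replicate 1, the 3 libraries that stand apart (0 for prenatal LPS, with 1.01% of all genes called), and the endothelial covariate without them (1 for prenatal LPS, 1 between LPS-LPS and Saline-Saline and 1 between LPS-Saline and Saline-Saline, each Cxcl12). For pubertal LPS in the libraries with Gabra6 at 1 CPM or more, 1 member was called, Cxcl12 (-0.33, adjusted p = 0.0433; 0.251% of all genes called). Signs turned for values that were not called. For prenatal LPS, Cxcl14 went to -0.11 with the offset, -0.12 with block and offset, -0.12 with endothelial covariate and offset, -0.0153 with Gabra6 below 1 CPM, -0.0112 without the 3 libraries, -0.01 without them and with the endothelial covariate, and -0.0066 to 0.0384 leaving out 1 library, Il18 to 0.0033 with Gabra6 at 1 CPM or more, and Il16 ran from -0.60 to 0.0895 leaving out 1 library. Between LPS-LPS and Saline-Saline, Il16 ran from -0.54 to 0.35 (0.35 without Saline-Saline replicate 4), Cx3cl1 was -0.0082 with the offset and -0.0085 with block and offset, Cxcl14 was -0.0926 with the offset, -0.10 with block and offset and -0.13 with endothelial covariate and offset, Il34 was -0.0038 with that pair and Csf1 0.0067 with the endothelial covariate. The cause of these changes was not tested. Depth limits Tgfb2, whose counting error of 4.35 to 5.37% is near its spread of 5.59%, and the receptors Il1rl1, Il18r1 and Il18rap.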
